A study of Mus musculus with 13 samples.

Results

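The genes described here are 8 reprogramming and pluripotency factors, Pou5f1, Sox2, Klf4, Myc, Nanog, Lin28a, Lin28b and Sall4, measured in mouse pancreas 2 weeks after a pulse of OSKM expression had ended. They were taken by name, as the rows whose Entrez identifier carries one of these symbols, and all 8 were found among the 23366 genes of the table. RNA was sequenced from the pancreas of 13 females, with 1 library per mouse. The study asks what a single cycle of transient reprogramming leaves behind in an aged tissue, and the comparison of old-OSKM with old mice addresses whether the reprogramming factors themselves still stood at another level at that time.

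Mice of all 3 groups belong to the reprogrammable i4F-B line, in which a transgene encoding Oct4, Sox2, Klf4 and Myc is inserted into Pparg and can be switched on with doxycycline throughout the body. The 4 young mice were 13 weeks old and untreated. The 5 old mice were 55 weeks old and untreated. The 4 old-OSKM mice received doxycycline for 7 days in sweetened drinking water, starting at 55 weeks of age, and recovered for 2 weeks. The sample labels put them at 58 weeks at collection, so they were 3 weeks older than the old controls. The carrier line is shared, but no group here received doxycycline without being able to induce the cassette, and an effect of the drug cannot be told apart from that of the factors.

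Oct4 (encoded by Pou5f1) and Sox2 are DNA-binding proteins that act side by side at composite sites in embryonic stem cells, and with Nanog they hold each other's genes active. Klf4 and Myc differ from them in being expressed in many adult tissues, Klf4 as a zinc-finger factor of epithelia and Myc as a driver of growth and ribosome production. Lin28a and Lin28b bind precursors of let-7 microRNAs and block their maturation, and Sall4 is a zinc-finger repressor of the early embryo and germ line, so that in an adult exocrine gland these genes are mostly silent.

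Values are deposited log2 RPKM, a level per length of transcript and per mapped reads, and they are comparable between genes on that scale. The tissue label was met by its markers. Ctrb1, a digestive protease precursor of acinar cells, was at 11.11 in every mouse, as the most abundant of 11 acinar genes. It has no spread because normalization gave the top ranks of every library the same values. Reads from the cassette and from the mouse's own 4 genes enter the same row where they share the coding sequence, and these values do not tell both sources apart. In bulk tissue, fewer cells that express a gene and less RNA per cell cannot be told apart either. The table holds no counts and no total for each library, so no error from counting is given for a value.

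Over the 13 mice the levels of the 4 cassette factors were ordered Myc, Klf4, Pou5f1 and Sox2, with mean log2 RPKM of 2.35, 0.36, -1.12 and -2.32. Myc was above Klf4, and Klf4 above Pou5f1, in all 13 mice and without overlap of their ranges. Pou5f1 exceeded Sox2 in 12 of 13 mice, although the ranges of this pair overlapped. The other 4 factors are not ranked, because their values were in many mice the lowest that the table gives the gene, in 13 mice for Nanog, 12 for Lin28b, 11 for Lin28a and 6 for Sall4. This lowest value differs from gene to gene, so an order among them would not be one of expression.

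Pou5f1 (Entrez 18999, chr17:35506018-35510772, plus strand, in GENCODE for GRCm38) had log2 RPKM of -1.70, -0.71, -1.15 and -1.10 in the young mice 1 to 4. The old mice 1 to 5 were at -1.38, -1.30, -1.06, -0.87 and -1.10. The old-OSKM mice 1 to 4 were at -0.61, -0.71, -2.06 and -0.80. In this last group 3 mice lay above every old mouse, while mouse 3 was the lowest of all 13, so the groups overlapped. Old-OSKM mice averaged -1.04 ± 0.68 (SD, n = 4) and old mice -1.14 ± 0.20 (SD, n = 5), a log2 difference of 0.10 with a 95% confidence interval from -0.53 to 0.73 (limma, adjusted p = 0.877). Leaving out old-OSKM mouse 3 raised the difference to 0.44, with an interval from 0.01 to 0.86, and Pou5f1 still did not reach a 1.5-fold change. Without old-OSKM mouse 1 the difference was -0.05, and without mouse 2 it was -0.02, so its sign depended on single mice. The antisense gene Gm19553 shares 317 exon bases with Pou5f1. The library kit does not mark the strand, so reads of both genes cannot be told apart there, and 10.1% of the 50-base stretches of Pou5f1 transcripts also occur in this gene or in the pseudogene Gm5712.

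Sox2 (Entrez 20674, chr3:34650405-34652461, plus strand) was at -1.57, -2.82, -2.37 and -3.33 in the young mice. In the old mice it was at -2.84, -1.98, -2.85, -2.08 and -1.51. The old-OSKM values were -2.60, -1.65, -2.49 and -2.03, all within the range of the old mice. The old-OSKM mean was -2.19 ± 0.44 (SD, n = 4) and the old mean -2.25 ± 0.58 (SD, n = 5), and the difference of 0.06 had an interval from -0.77 to 0.88 (limma, adjusted p = 0.95). Sox2 lies within the longer noncoding gene Sox2ot on the same strand. No exon base is shared between them, and the row of Sox2ot stayed between -5.05 and -4.82 in all mice. None of the 50-base stretches of Sox2 occurs in another gene.

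Klf4 (Entrez 16600, chr4:55527143-55532466, minus strand) had values of 0.34, 0.21, 0.16 and 0.67 in young mice and of 0.13, 0.57, 0.48, 0.25 and 0.29 in old mice. The old-OSKM mice were at 0.13, 0.43, -0.07 and 1.04. Both the lowest and the highest of the 13 values thus came from this group, from mice 3 and 4. Its mean was 0.38 ± 0.48 (SD, n = 4), against 0.34 ± 0.18 (SD, n = 5) in old mice. The difference was 0.04, with an interval from -0.40 to 0.48 (limma, adjusted p = 0.930), and it became -0.18 without old-OSKM mouse 4.

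Myc (Entrez 17869, chr15:61985391-61990374, plus strand) was the most abundant factor, at 2.16, 1.92, 2.70 and 2.34 in young mice. The old mice had 2.25, 2.77, 2.88, 2.06 and 2.21, and the old-OSKM mice 2.01, 2.64, 1.91 and 2.69. Old-OSKM mice 1 and 3 lay below all old mice and mice 2 and 4 lay among the higher ones. Means of 2.31 ± 0.41 (SD, n = 4) and 2.43 ± 0.36 (SD, n = 5) gave a difference of -0.12, with an interval from -0.63 to 0.39 (limma, adjusted p = 0.799).

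**Figure D1:**
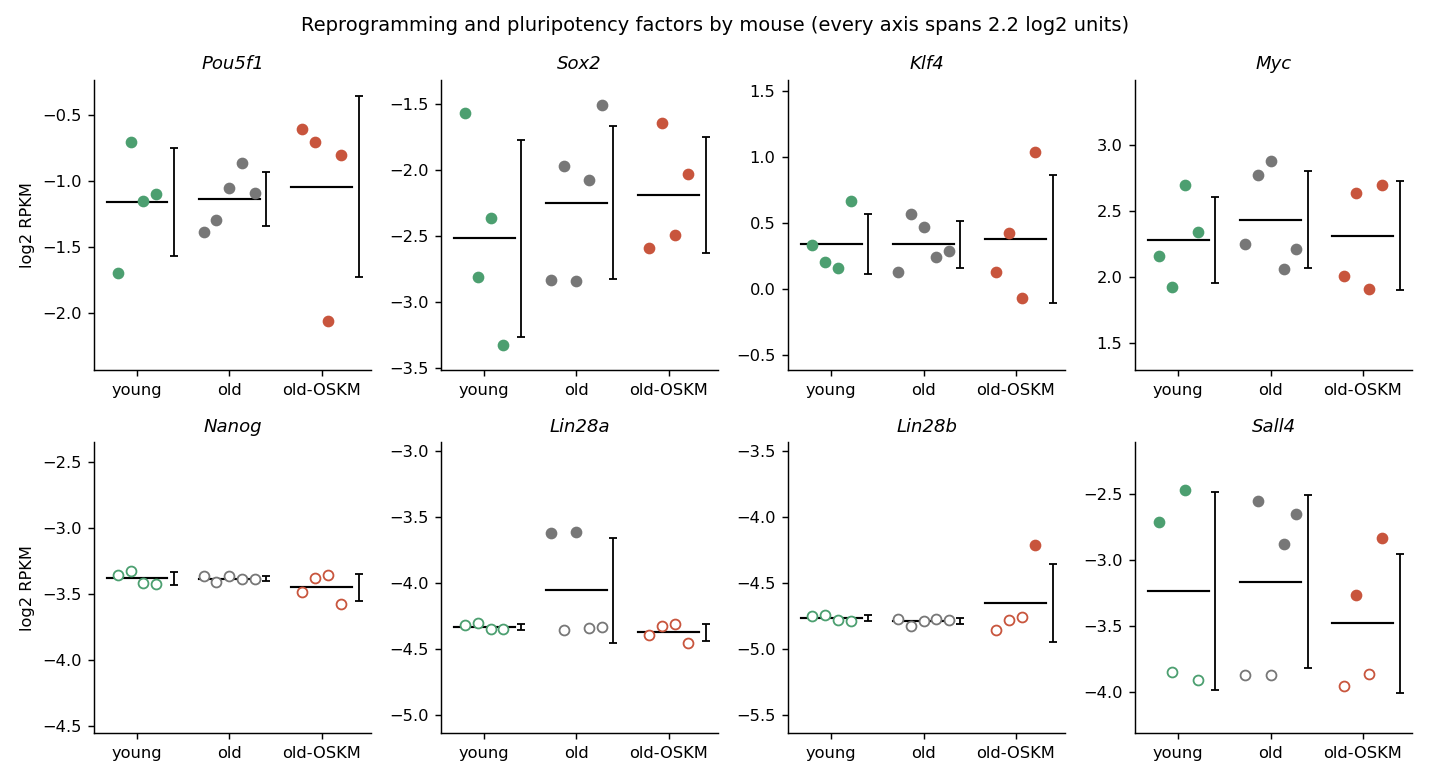
Each panel shows the log2 RPKM of 1 gene on the vertical axis in the young, old and old-OSKM mice, with 1 point per mouse in replicate order, a line at the group mean and a bar for 1 SD to its right. Open points are at the floor of the gene, the near-constant low value it takes in several mice, and for Nanog all 13 points are open.

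The other 4 factors stood at the lowest value that the table gives them in all mice (Nanog), in most mice (Lin28a and Lin28b) or in 6 of 13 mice (Sall4). Of all genes, 4007 had a mean below -2.5 and a range under 0.4 over the 13 mice, and these shared the same small offsets from mouse to mouse. Old-OSKM mouse 4 had the largest such offset, -0.15, followed by old-OSKM mouse 1 with -0.08, and the remaining mice were between -0.03 and 0.04. After removal of the offsets, a value within 0.15 of the gene's lowest, shared by at least 4 mice and below -2, was taken to be at the floor, a rule set after the values were seen. A value at the floor measures no difference between mice.

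Nanog (Entrez 71950, chr6:122707489-122714633, plus strand) was at the floor in 13 of 13 mice, with all values between -3.58 and -3.33. The lowest were those of old-OSKM mice 4 and 1, at -3.58 and -3.49, the same mice that had the largest offsets. Old-OSKM and old means differed by -0.07, beside a shift of -0.05 in the 4007 floor genes, so the row of Nanog was displaced about as far as rows that stay at the floor. A row at the floor in all 13 mice was seen in 15.9% of all genes. Some 4.61% of the 50-base stretches of Nanog occur elsewhere, mainly in the pseudogene Nanog-ps1.

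Lin28a (Entrez 83557, chr4:134003330-134018841, minus strand) was at the floor in 11 of 13 mice, between -4.46 and -4.31. Old mice 1 and 3 were the exceptions, both at -3.62. For Lin28b (Entrez 380669, chr10:45376620-45486395, minus strand) the floor held 12 mice, between -4.86 and -4.74, and old-OSKM mouse 4 stood at -4.21. These 3 values lay 0.71, 0.72 and 0.73 above the floor of their gene. The same height was common in other weakly expressed genes: in the 1977 genes with 9 to 12 mice at the floor, 56.6% of the 4191 values above it lay between 0.65 and 0.80 higher. The Lin28 values above the floor were therefore at the most frequent first step of the table. Such values were spread unevenly over the mice, with 485, 217, 330 and 580 of the 1977 genes above the floor in old-OSKM mice 1 to 4, from 239 to 365 in old mice and from 207 to 435 in young mice. The mouse with the only Lin28b value above the floor was also the mouse with the most such genes, and the part of this in the Lin28b value was not tested.

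Sall4 (Entrez 99377, chr2:168748332-168767943, minus strand) split each group, with 6 mice at the floor and 7 above it. Young mice were at -2.72, -3.85, -2.47 and -3.91, old mice at -3.87, -2.55, -3.87, -2.88 and -2.65, and old-OSKM mice at -3.95, -3.26, -3.86 and -2.84. The floor held 2 young, 2 old and 2 old-OSKM mice. Lin28a shares 234 exon bases with the opposite-strand gene Gm13061 and Sall4 shares 526 with Gm14261, so without strand a part of these low values may belong to either gene. The interval of the old-OSKM minus old difference of Sall4 was wide, from -1.21 to 0.58 around -0.31, and its width follows from the split within groups.

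None of the 8 factors was called in any of the 3 comparisons, where a call is a fold change over 1.5 with a raw p under 0.01 in limma. Between old-OSKM and old mice 0 of 8 were called, beside 0.753% of all genes. From young to old mice it was 0 of 8, beside 0.886%, and between old-OSKM and young mice 0 of 8, beside 0.625%. At an adjusted p under 0.05 the shares of all genes were 0.00428%, 0.0813% and 0.0428% in the same order, again with no factor among them. No factor had a raw p under 0.05 in any comparison, and the same held for the two-sided exact permutation test, whose smallest possible p is 0.0079 with 4 against 5 mice. The exact permutation p of old-OSKM against old mice was 0.825 for Pou5f1, 0.849 for Sox2, 0.889 for Klf4 and 0.619 for Myc. The values of old-OSKM and old mice overlapped in all 8 factors, while in 1.73% of all genes they did not. Old and young values also overlapped in all 8, against 2.71% of genes without overlap. Since less than 1% of genes were called in each comparison, a count of 0 of 8 is near the background and says little about these genes in particular.

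The intervals show how large a lasting difference could have gone unseen. On the linear scale, the 95% interval of old-OSKM over old mice ended at 1.65-fold for Pou5f1, 1.85-fold for Sox2, 1.39-fold for Klf4 and 1.31-fold for Myc. Downward, they ended at 0.691, 0.587, 0.759 and 0.644 of the old level. A change of 1.5-fold upward therefore lay outside the interval for Klf4 and Myc but inside it for Pou5f1 and Sox2, whose levels were lower and whose mice varied more. Sox2 fell to -3.33 in young mouse 4, a level that rows at the floor also have. The rule gave Sox2 no floor, since at least 4 mice must share it. Its spread may partly be that of values near the floor, which was not tested. With age, from young to old, the differences were 0.02 for Pou5f1, 0.27 for Sox2, 0.00 for Klf4 and 0.15 for Myc, all within intervals that include 0. Both comparisons use the same old mice.

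**Figure D2:**
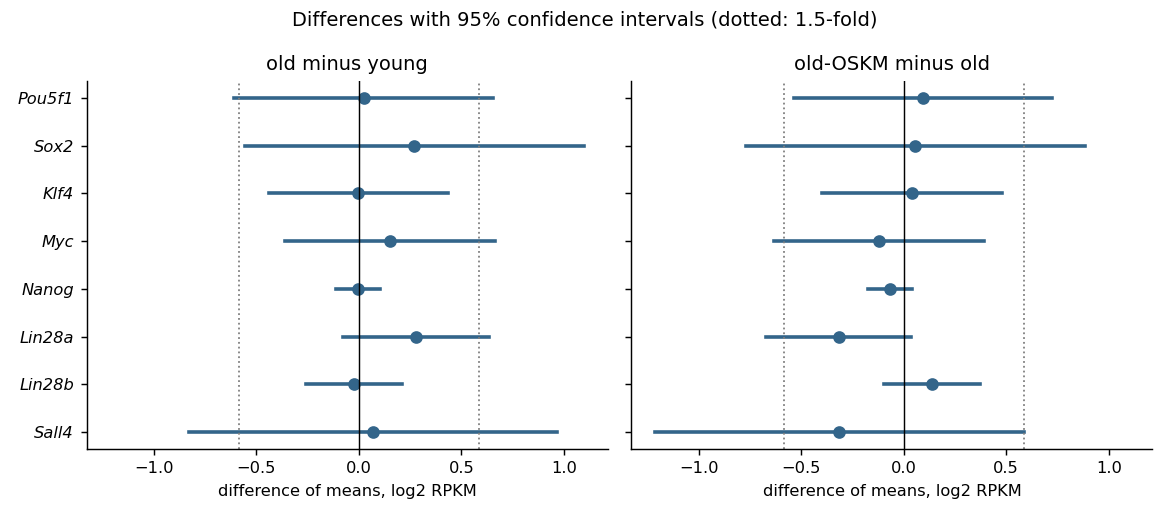
Points are the differences of group means in log2 RPKM for each of the 8 factors, old minus young on the left and old-OSKM minus old on the right, and lines are their 95% confidence intervals from limma. Every interval includes 0, the vertical line, and dotted lines mark a 1.5-fold change in either direction.

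Pairs of the 4 cassette factors varied together to different degrees from mouse to mouse. Over the 13 mice Pearson's r was 0.62 for Klf4 with Myc, 0.34 for Pou5f1 with Klf4, 0.17 for Pou5f1 with Myc, 0.11 for Sox2 with Myc, 0.10 for Sox2 with Klf4, and -0.05 for Pou5f1 with Sox2, given as a description of points that share a library and its normalization. Sox2 and Sall4 had the highest r of any pair, 0.77, with Sall4 at its floor in 6 mice. Within the old-OSKM group, mouse 3 was lowest in Pou5f1, Klf4 and Myc, and the third of 4 in Sox2. Mouse 4 was highest in Klf4 and Myc, the second in Sox2 and the third in Pou5f1.

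Other tissue components varied in the same mice. The summed RPKM of 7 fibroblast and pericyte markers, led by Dcn, was 37.4, 26.6, 23.9 and 67.1 in old-OSKM mice 1 to 4, and from 19.4 to 24.9 in old mice. For 6 macrophage markers, led by Lyz2, it was 27.5, 11.1, 11.3 and 26.1, and from 7.59 to 12.6 in old mice. Erythroid and blood genes, led by Hba-a1, summed to 48.7, 35.4, 39.6 and 104.5 in the old-OSKM mice and to between 42.0 and 54.4 in old mice. Islet genes, led by Ins2, summed to 78.6, 163.3, 115.6 and 505.02 in old-OSKM and to between 170.8 and 390.8 in old mice, so that 3 old-OSKM mice lay below and 1 above every old mouse. In young mice these 4 sums ranged from 25.5 to 48.4, 10.1 to 16.1, 52.7 to 68.6 and 151.2 to 312.4, in the same order. Mouse 4, the highest in Klf4, was thus also highest in 3 of these 4 lists, and their part in the Klf4 value was not tested.

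Genes most like a factor were searched among 8406 genes with a mean log2 RPKM above 0, for the 2 factors with a mean above -1. Klf4 was followed most closely by Pdrg1, 2410002F23Rik and Fam133b, each with a Pearson r of 0.91 over 13 mice. Without old-OSKM mouse 4, r was 0.82, 0.81 and 0.80. Myc was followed by Adamts9, an extracellular protease, with r = 0.87, by Slc35a1, the transporter of CMP-sialic acid into the Golgi, with r = 0.84, and by the kinase gene Sgk1 with r = 0.84.

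Promoter sequences differ between these genes, and 6 of the 8 have an entry among the RefSeq promoter sequences for GRCm38.p6. The 250 bases before the start that RefSeq gives, from which positions are counted and which differs from the GENCODE start for some genes, are printed for 4 of them, 5' to 3' on the strand of the gene, because the 3 genes of the pluripotency core and Klf4 differ in level and in sequence. Capitals mark matches on either strand to TTTGCAT, the core of the octamer bound by Oct4, to ACAATG, a core bound by Sox factors, to GGGCGG, the GC box bound by Sp and Klf proteins, and to CACGTG, the E-box bound by Myc with Max. Neighbouring matches may run together.
Nanog, chr6:122707239-122707488, plus strand: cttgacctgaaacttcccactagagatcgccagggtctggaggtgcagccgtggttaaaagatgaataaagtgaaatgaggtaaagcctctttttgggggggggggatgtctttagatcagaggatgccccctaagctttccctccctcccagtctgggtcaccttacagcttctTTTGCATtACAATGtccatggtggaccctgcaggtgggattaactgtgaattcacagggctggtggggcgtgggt
Sox2, chr3:34649745-34649994, plus strand: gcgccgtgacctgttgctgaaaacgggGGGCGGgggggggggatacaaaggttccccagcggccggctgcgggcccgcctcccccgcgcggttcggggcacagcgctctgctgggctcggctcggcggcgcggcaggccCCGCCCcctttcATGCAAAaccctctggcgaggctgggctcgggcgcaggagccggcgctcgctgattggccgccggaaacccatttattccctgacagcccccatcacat
Pou5f1, chr17:35505782-35506031, plus strand: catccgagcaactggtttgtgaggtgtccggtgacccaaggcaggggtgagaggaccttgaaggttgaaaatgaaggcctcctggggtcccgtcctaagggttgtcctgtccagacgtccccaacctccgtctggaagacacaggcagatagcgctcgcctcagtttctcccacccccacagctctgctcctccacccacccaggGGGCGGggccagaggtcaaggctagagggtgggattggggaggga
Klf4, chr4:55532476-55532725, minus strand: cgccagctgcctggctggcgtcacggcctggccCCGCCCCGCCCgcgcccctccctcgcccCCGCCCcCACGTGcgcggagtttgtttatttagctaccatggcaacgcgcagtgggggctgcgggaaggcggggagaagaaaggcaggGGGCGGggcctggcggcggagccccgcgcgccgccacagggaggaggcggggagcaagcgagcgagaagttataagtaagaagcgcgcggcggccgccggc

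In the Nanog promoter the octamer core begins at -75 and the Sox core at -67, with 1 base between them, the arrangement of a composite Oct4 and Sox2 element. The octamer core, in either orientation, occurs in 4.12% of all 32851 promoters of this length and the Sox core in 10.7%. Sox2 has an octamer core at -99 in the reverse orientation and GC boxes at -223 and -111. Klf4 holds the E-box at -182, a sequence found in 6.02% of promoters, and 4 GC boxes, of which 2 share a base. At least 1 GC box occurs in 32.7% of promoters. Pou5f1 has 1 GC box at -45. Pou5f1 and Nanog each have a second entry that is not printed. That of Pou5f1 has a Sox core at -158 and 6 CpG, and that of Nanog, which overlaps the first, has the octamer core at -151, the Sox core at -143 and 2 CpG. The promoter of Lin28a holds a Sox core at -96 and 7 CpG, and that of Lin28b an E-box at -49 and 6 CpG. A match is a string of letters and not a shown binding site. The promoter of Nanog, whose row was at the floor, has 3 CpG and Pou5f1 has 8, while Sox2 has 27 and Klf4, which was expressed in every mouse, has 32, and the median of all promoters is 6. High CpG content did not go with level in every case, as Sox2 was expressed far below Klf4 with nearly as many CpG.

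Further genes of the pluripotency network ranged from rows at the floor in all mice to rows to which the rule gave no floor. Of 28 such genes, 12 (42.9%) were at the floor in all 13 mice, compared with 15.9% of all genes. At least 1 mouse was above the floor in 11 genes among the 4 young, in 14 among the 5 old and in 15 among the 4 old-OSKM mice. Over all 23366 genes the numbers had the same order, 18564, 18762 and 18892. Genes to which the rule gave no floor are counted as above it here. Between old-OSKM and old mice 0 of 28 were called in limma (1 at an unadjusted p under 0.05, which 8.07% of all genes had), with a median difference of -0.04, the same as the median of all genes. Tfe3, a transcription factor gene that is broadly expressed, had the highest level of the list with means of 1.30 ± 0.02 (SD, n = 4) after OSKM and 1.30 ± 0.10 (SD, n = 5) in the old controls.

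**Figure D3:**
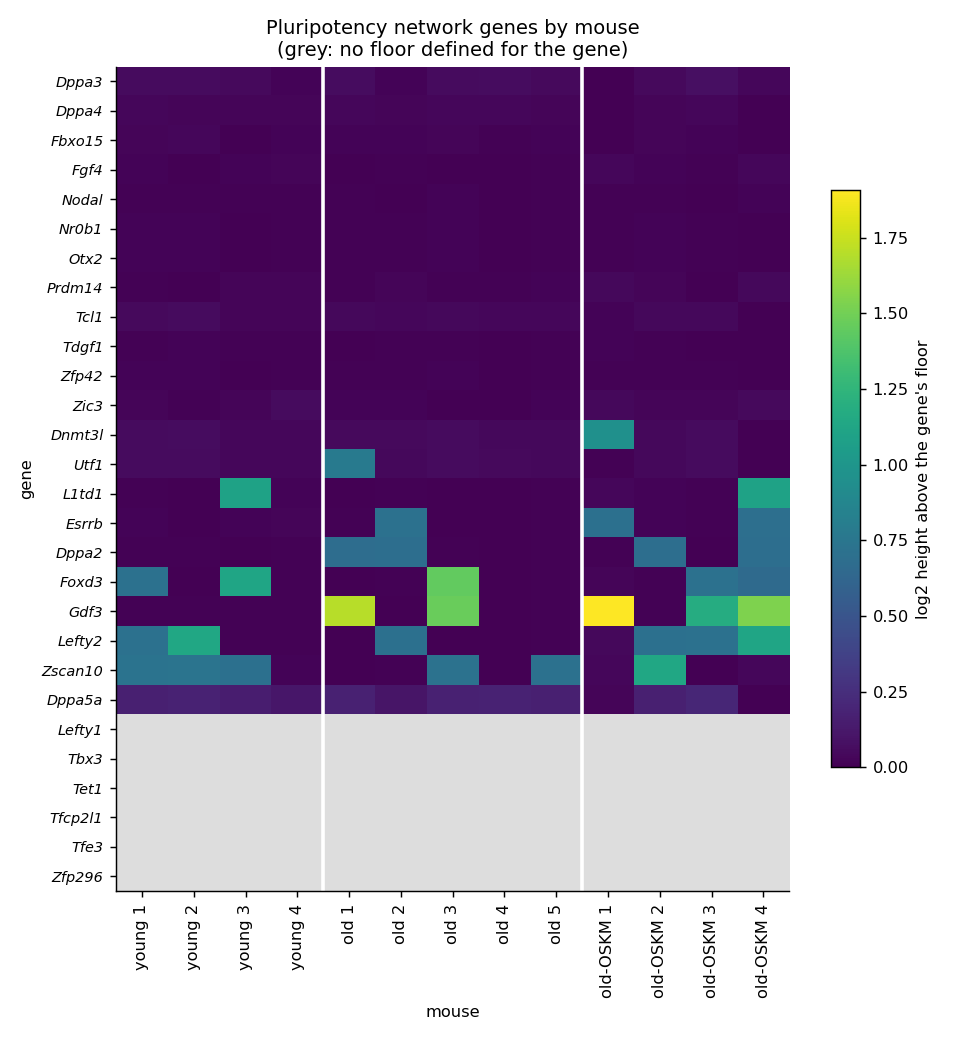
Rows are the 28 genes of the pluripotency network and columns the 13 mice, and the colour gives the log2 height of each value above the floor of its gene. The upper 12 genes are at the floor in all mice, single raised values are scattered over all 3 groups, and the 6 genes in grey have no floor because they were measured above it throughout.

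Tet1, which encodes an enzyme that oxidises 5-methylcytosine, was the gene of this list that was called, in 2 of the 3 comparisons. Its log2 RPKM was -1.19, -1.03, -1.61 and -1.22 in young mice and -2.12, -1.90, -1.67, -2.05 and -1.98 in old mice, without overlap. Old and young values did not overlap in 2.71% of all genes, and young mouse 3 at -1.61 was close to old mouse 3 at -1.67. Old-OSKM mice had -2.04, -1.73, -1.75 and -1.87, and did not overlap with young mice either. The share of all genes without overlap was not counted for old-OSKM and young mice. Tet1 fell by 0.68 from young to old mice (limma, adjusted p = 0.0935) and was lower by a difference of -0.59 in old-OSKM than in young mice (limma, adjusted p = 0.398). The old-OSKM minus old difference was 0.09. The calls rest on the raw p, since neither passed after adjustment over all genes. The call against old-OSKM mice was lost in 5 of 13 fits without 1 mouse, with differences from -0.70 to -0.51, and in 3 of 7 other alternatives, and that from young to old mice in 0 of 13 and 2 of 7.

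In the 33 relatives of the cassette factors (Pou, Sox, Klf and Myc families) 0 genes were called in any comparison, and 5 had an unadjusted p under 0.05 in limma between old-OSKM and old mice, beside 8.07% of all genes. Sox5 had the smallest p between old-OSKM and old mice, with -0.97 ± 0.20 (SD, n = 4) against -1.44 ± 0.13 (SD, n = 5). Sox7, an endothelial factor gene, was next, with -0.58 ± 0.12 (SD, n = 4) against -0.21 ± 0.22 (SD, n = 5). Klf15 was the most abundant relative, at 2.73 ± 0.37 (SD, n = 4) and 2.83 ± 0.14 (SD, n = 5). The 13 genes of the Myc network, the partners and antagonists of Myc at the E-box, also gave 0 calls, with 1 at an unadjusted p under 0.05 in limma between old-OSKM and old mice, beside 8.07% of all genes. In 11 of 13 the mean was lower in old-OSKM than in old mice, as it was in 63.1% of all genes, and the median difference was -0.09, beside -0.04. Here and below, the shares of all genes with a lower or higher mean include rows at the floor. The 4007 floor genes shifted by -0.05 between these groups, so these shares are partly set by such rows. Shares among expressed genes alone were not counted. Among them Mxd1, an antagonist of Myc for its partner Max, was at 0.27 ± 0.28 (SD, n = 4) and 0.53 ± 0.07 (SD, n = 5), Mlxipl at -0.91 ± 0.44 (SD, n = 4) and -0.49 ± 0.30 (SD, n = 5), and Mxd4 at 2.23 ± 0.12 (SD, n = 4) and 2.31 ± 0.06 (SD, n = 5).

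Targets of Myc make ribosomes, nucleotides and enzymes of metabolism. Of 30 targets 0 were called in any comparison (0 at an unadjusted p under 0.05 in limma between old-OSKM and old mice, beside 8.07% of all genes). The mean was higher in 14 and lower in 16 in old-OSKM than in old mice, beside 36.9% and 63.1% of all genes, and the median difference was -0.01. Npm1, a nucleolar chaperone of ribosome assembly, was at 4.20 ± 0.14 (SD, n = 4) and 4.15 ± 0.06 (SD, n = 5). Mybbp1a differed by 0.10 and Ldha, the lactate dehydrogenase subunit, by -0.17. In 12 proliferation genes 0 were called in any comparison (2 at an unadjusted p under 0.05 in limma between old-OSKM and old mice, beside 8.07% of all genes). In 11 of 12 the mean was higher in old-OSKM than in old mice, beside 36.9% of all genes, a share that includes the rows at the floor. The median difference was 0.59. Their summed RPKM was 12.7, 9.34, 7.90 and 5.31 in old-OSKM mice 1 to 4 and from 6.47 to 7.73 in old mice, so that mouse 4 lay below every old mouse. Mouse 1, the highest, was also the highest old-OSKM mouse in T cell, B and plasma cell and macrophage markers. Their summed RPKM was 3.81, 11.8 and 27.5 in mouse 1, above every old mouse. The part of these cells in the proliferation values was not tested. Pcna, the sliding clamp of DNA replication, differed by 0.21 and the mitotic kinase gene Bub1 by 0.98, and neither passed the call. With each mouse left out the difference of Bub1 ranged from 0.69 (without old-OSKM mouse 1) to 1.19 (without old-OSKM mouse 3), and Bub1 was called in 2 of these 13 fits. As 3 of 5 old mice were at the floor of Bub1, 0.98 is not a difference between expressed levels.

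The Lin28 and let-7 list holds 21 genes that process let-7 or are repressed by it. Here 0 of 21 were called between old-OSKM and old mice in limma (2 at an unadjusted p under 0.05, beside 8.07% of all genes), with a median difference of 0.00, and Hmga1, the most abundant, was at 2.11 ± 0.27 (SD, n = 4) and 2.09 ± 0.04 (SD, n = 5). Igf2bp2, an RNA-binding protein of fetal growth and a known let-7 target, was lower in old than in young mice. Its values were -2.05, -1.66, -1.58 and -1.84 in young mice and -3.33, -3.37, -3.74, -3.34 and -3.34 in old mice. Old mice 1, 2, 4 and 5 thus lay between -3.37 and -3.33, levels that rows at the floor also have. The rule gave Igf2bp2 no floor, but its old values may lie near one, so the size of its differences is uncertain. The old-OSKM mice lay at -2.34, -3.07, -3.31 and -2.93, above all old mice and below all young mice. Old-OSKM and old values did not overlap in 1.73% of all genes, and old and young values in 2.71%. Old-OSKM mouse 3, at -3.310, was apart from old mouse 1, at -3.325, by less than its offset in floor genes, 0.024. The place of this mouse above all old mice is therefore uncertain. The difference was -1.64 from young to old mice (limma, adjusted p = 0.00518), -1.13 between old-OSKM and young mice (limma, adjusted p = 0.118) and 0.51 between old-OSKM and old mice, the last not called. Both calls were lost with a pseudocount of 1 and in no other fit. With that pseudocount a 1.5-fold change was out of reach, as the highest RPKM of Igf2bp2 was 0.33. The 11 let-7 precursor rows do not measure let-7 here, since all moved alike between -1.32 and -0.48 with the lowest mean in old-OSKM mouse 4.

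Pparg, the gene that carries the transgene, was at 0.00, -0.22, -0.67 and -0.12 in young mice. Its values were 0.19, -0.51, -0.11, 0.25 and -0.24 in old and -0.32, -0.38, -0.47 and -0.09 in old-OSKM mice. Old-OSKM and old means differed by -0.23, with an interval from -0.60 to 0.15, so the row of the insertion site was not called. Of the 9 genes in the list of Pparg and adipocyte genes 7 had a higher mean in old-OSKM than in old mice, beside 36.9% of all genes, with a median difference of 1.14. In every old mouse 4 or 5 of the 9 genes were at the floor, against 0, 3, 4 and 0 in old-OSKM mice 1 to 4. A part of these differences is therefore not between expressed levels. At an unadjusted p under 0.05 in limma there were 4 of 9, beside 8.07% of all genes, and 1 was called, beside 0.753%. The mean log2 RPKM over the list was 0.64, -1.55, -1.64 and -0.25 in old-OSKM mice 1 to 4 and from -1.75 to -1.54 in old mice, so that only old-OSKM mice 1 and 4 stood clear of the old mice. Untreated young mice 3 and 4, at -1.01 and -0.88, also lay above the old mice, while young mice 1 and 2 were at -1.72 and -1.65. The called gene was Plin1, which coats lipid droplets, with -0.15, -2.69, -2.63 and -1.46 in old-OSKM and -3.39, -3.44, -3.39, -2.67 and -3.41 in old mice, where 4 of 5 were at the floor. Plin1 rose by 1.53 (limma, adjusted p = 0.547), most of it in old-OSKM mice 1 and 4. The call was lost in 6 of 13 fits without 1 mouse and in 5 of 7 other alternatives, and the difference was 1.00 without old-OSKM mouse 1. Lpl, the most abundant gene of the list, differed by -0.09.

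Immediate early genes respond to handling and stress within minutes, and Klf4 and Myc belong to the fast-responding genes themselves. Of 18 such genes 0 were called between old-OSKM and old mice in limma (4 at an unadjusted p under 0.05, beside 8.07% of all genes), with 16 higher, beside 36.9% of all genes, and a median difference of 0.20. The mean log2 RPKM over the list was -0.01, -0.20, -0.61 and 0.21 in old-OSKM mice 1 to 4 and from -0.71 to -0.16 in old mice, so that only mice 1 and 4 lay above the old mice. Egr3 was called between old-OSKM and young mice, with -2.34, -1.32, -2.65 and -2.67 against -2.69, -3.37, -3.47 and -3.47, of which 3 young values are at the floor. The difference was 1.00 (limma, adjusted p = 0.706), and the call was lost in 8 of 13 fits without 1 mouse, with a difference of 0.70 without old-OSKM mouse 2, and in 5 of 7 other alternatives. Jund was the most abundant, with means of 2.46 ± 0.19 (SD, n = 4) after OSKM and 2.32 ± 0.09 (SD, n = 5) in the old controls.

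**Figure D4:**
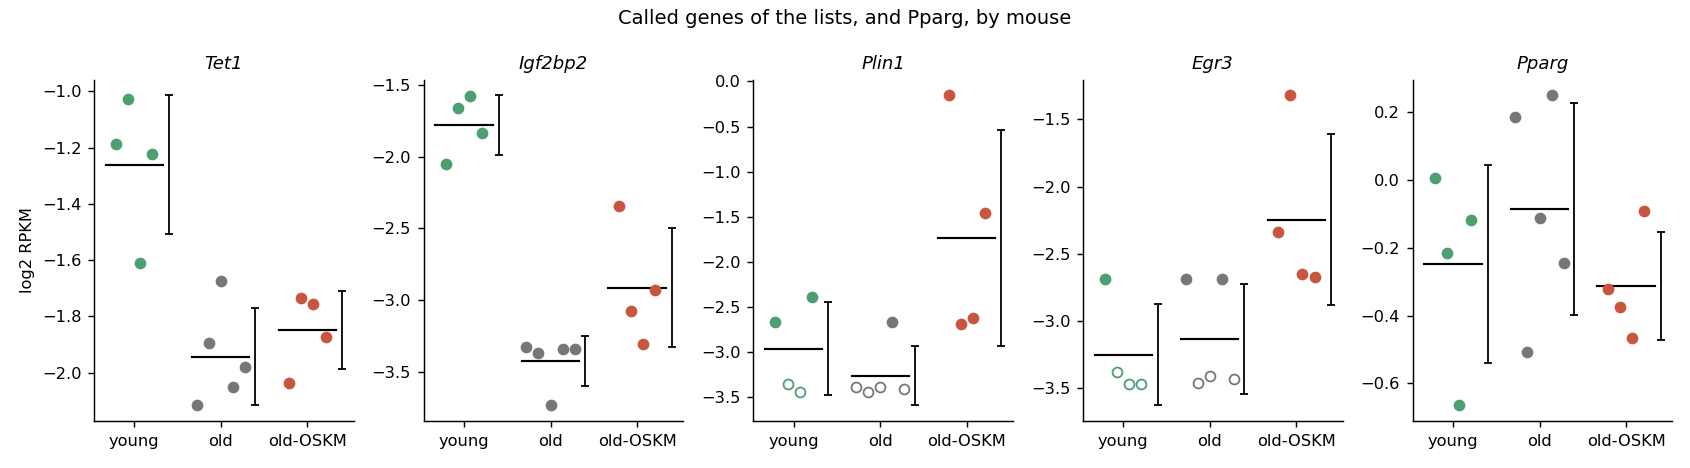
The vertical axis is log2 RPKM, scaled separately for each gene, with 1 point per mouse, a line at the group mean and a bar for 1 SD. Tet1 and Igf2bp2 are lower in all old mice than in all young mice, Plin1 and Egr3 start from the floor (open points) in most young and old mice, and Pparg overlaps between all 3 groups. Old and young values did not overlap in 2.71% of all genes.

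Markers of other cell types give the setting of these values. Between old-OSKM and old mice 1 marker was called, Col1a1, a fibrillar collagen gene of fibroblasts, with a difference of 0.88 (limma, adjusted p = 0.547), and it was not called without old-OSKM mice 1 and 4, where the difference was 0.44. Of the 7 fibroblast markers 6 had a higher mean in old-OSKM than in old mice, beside 36.9% of all genes, with a median difference of 0.59. From young to old mice Col1a1 and Col3a1 fell by 0.93 and 1.04. The median differences between old-OSKM and old mice were 0.66 for 6 macrophage markers, all 6 with a higher mean, 0.73 for 4 T cell markers, 0.63 for 5 B and plasma cell markers and 0.30 for 6 endothelial markers. T cell markers summed to an RPKM of 3.81, 0.553, 1.01 and 1.02 in old-OSKM mice 1 to 4 and to between 0.489 and 1.14 in old mice, so that mouse 1 stood apart. B and plasma cell markers summed to 11.8, 3.92, 3.24 and 5.97, and to between 2.19 and 7.65 in old mice, with mouse 1 alone above them. Endothelial markers summed to 11.97, 11.3, 11.1 and 21.9, and to between 9.75 and 11.89 in old mice, with mouse 4 well above them. The difference of Cd3e, a subunit of the T cell receptor complex, was 0.37 with old-OSKM mouse 1 and -0.28 without mouse 1. The median differences were 0.00 for acinar, -0.01 for duct, -0.53 for islet, 0.00 for stomach, -0.12 for small intestine and 0.07 for erythroid and blood genes. Normalization gave the top ranks of every library the same values, and the most abundant acinar genes hold such ranks. The acinar median therefore does not show that acinar content was unchanged. No marker of these lists other than Col1a1 was called in that comparison. At an unadjusted p under 0.05 in limma there were 4 of 6 macrophage, 3 of 7 fibroblast and 2 of 8 stomach markers and 0 in the other lists named here, beside 8.07% of all genes. Lyz2, the lysozyme gene of macrophages, was at 3.84, 2.47, 2.40 and 3.99 in old-OSKM mice 1 to 4 and from 1.71 to 2.49 in old mice, so that only mice 1 and 4 lay above the old mice. The difference of Lyz2 was 1.03 and was not called. With each mouse left out it ranged from 0.76 (without old-OSKM mouse 4) to 1.29 (without old-OSKM mouse 3), and Lyz2 was called in 2 of these 13 fits and among genes with a mean above 0. Other markers called in these comparisons include Jchain, of antibody-secreting cells, higher in old than in young mice by 2.35 and in old-OSKM than in young mice by 3.04, Ms4a1 of B cells, higher in old-OSKM than in young mice by 1.77, and the stomach protease gene Pgc, higher by 1.09 in the same comparison, where all 4 young mice and old-OSKM mouse 3 were at the floor of Pgc, so that 1.09 is not a difference between expressed levels. Fits without 1 mouse ended the Pgc call in 11 of 13 cases, that of Ms4a1 in 7, those of Jchain from young to old and of Col1a1 between old-OSKM and old mice in 5 each, that of Col3a1 in 4 and that of Col1a1 from young to old in 1. Of the other alternatives, 5 of 7 ended the Pgc call, 4 of 7 that of Ms4a1, 4 of 8 that of Jchain from young to old, and 1 of 8 those of Jchain between old-OSKM and young mice, of Col1a1 between old-OSKM and old mice and of Col3a1.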

How the data were processed

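Per the labels, libraries were made from rRNA-depleted total RNA with a kit that does not mark the strand and aligned with STAR 2.3.0e to mm10. The authors estimated RPKM per isoform with Casper, summed them per Entrez gene, and deposited them as quantile-normalized log2 values; these log2 RPKM were used as deposited, with no pseudocount and no filter. Symbols came from the RefSeq table of GRCm38.p6 (23273 of 23366 identifiers matched), positions from GENCODE for GRCm38, which is mm10. The correction of the values by total reads that the methods name was not applied here.

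The 3 groups were fitted together with limma 3.58.1 in R 4.3.3 (lmFit, eBayes), without covariates, over all genes, and Benjamini-Hochberg adjusted p-values are over all of them. All tests are two-sided and intervals are at 95%. The members and the gene lists were chosen with earlier results of these data known. Lists were written by hand. The genes named are the 8 factors, Pparg, the called genes of each list (at most 4, or 3 for cell markers) or else the 2 of smallest p between old-OSKM and old mice, the most abundant gene of each list, and the 3 genes most like each factor with a mean above -1. The rule for the floor and the motifs were chosen after the values were seen. Mice are separate animals, and replicate numbers follow the order of the samples only. The fit was tested on simulated data. Python 3.11.15 with matplotlib 3.10.9 drew the figures.

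Alternatives were pseudocounts of 1 and 0.1, a mean log2 RPKM above 0, centring on the median of each mouse, fitting only the 2 groups compared, eBayes with trend and robust options, a covariate for the run of sample identifiers, exact permutation tests for the factors, and leaving out each mouse. Floor tolerances of 0.1 and 0.3, and the fit without old-OSKM mice 1 and 4, were added after the data were seen.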

Additional observations from a re-analysis of the deposited data

Results flagged for a closer look

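For 9 genes, the 8 factors and Pparg, each of the 27 groups of 4 or 5 mice was searched for a mouse far from the others, and 3 were found, where chance flags about 1 in 20 groups. In Pou5f1 old-OSKM mouse 3 had -2.06, below the other 3 of its group, which lay between -0.80 and -0.61. In Lin28b old-OSKM mouse 4 had -4.21, above the other 3, between -4.86 and -4.75. Old mouse 2 had -4.82 in Lin28b, below the others between -4.78 and -4.77, all 5 at the floor of the gene.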

How the results depend on the processing

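No paired analysis was possible because the labels give no replicate numbers that link mice of different groups. From young to old mice 207 genes were called, 16 with a pseudocount of 1, 116 with 0.1, 44 among genes with a mean above 0, and 175 (without old replicate 3) to 280 (without young replicate 3) with 1 mouse left out. Between old-OSKM and old mice 176 genes were called (136 higher and 40 lower), 2 with a pseudocount of 1, 77 with 0.1, 35 among genes with a mean above 0, and 94 (without old-OSKM replicate 1) to 338 (without old-OSKM replicate 2) with 1 mouse left out. Between old-OSKM and young mice 146 genes were called, 8 with a pseudocount of 1, 76 with 0.1, 19 among genes with a mean above 0, and 121 (without old-OSKM replicate 1) to 253 (without old-OSKM replicate 2) with 1 mouse left out. Without old-OSKM mice 1 and 4, an alternative chosen after seeing the data, 80 genes were called, 31 higher and 49 lower. In that alternative, these differences changed sign: Cd3e -0.48, Klf4 -0.16, Muc1 0.00559, Nanog 0.0154, Npm1 -0.0473, Pecam1 -0.017, Pou5f1 -0.24, Tfe3 -0.00875 and Tff1 0.11. With the run of sample identifiers as covariate, these differences changed sign: Hba-a1 0.0211, Klf4 (old minus young) 0.0137 and Tfe3 -0.00912. Ctrb1, with no difference as reported, was at 0.00306 after centring on the median. With each mouse left out in turn, these changed sign: Cd3e from -0.28 to 0.72, Hba-a1 from -0.30 to 0.0947, Hmga1 from -0.0995 to 0.12, Klf4 (old minus young) from -0.0622 to 0.11, Klf4 from -0.18 to 0.19, Lin28b from -0.00863 to 0.21, Myc from -0.25 to 0.0121, Nanog (old minus young) from -0.0161 to 0.0149, Npm1 from -0.0206 to 0.0872, Pou5f1 (old minus young) from -0.16 to 0.18, Pou5f1 from -0.0499 to 0.44, Sall4 (old minus young) from -0.16 to 0.33, Sox2 from -0.12 to 0.24, Tfe3 from -0.0275 to 0.0254 and Tff1 from -0.33 to 0.0681. Differences not named otherwise are old-OSKM minus old. Under all alternatives 0 of 340 values of the factors were called and 27 changed sign. With a pseudocount of 1, Sox2, Nanog, Lin28a, Lin28b and Sall4 could not reach a 1.5-fold change. Their highest RPKM was 0.35, that of Sox2 in old mouse 5. The same held for Igf2bp2, Tet1, Egr3 and Pgc, whose highest RPKM was 0.49, that of Tet1 in young mouse 2. The loss of these calls with that pseudocount was therefore fixed in advance. The causes were not tested. With floor tolerances of 0.1 and 0.3, 12 and 13 of the 28 network genes were at the floor in all mice.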
